A study of Mus musculus with 8 samples.

Results

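The enzymes and receptors of the leukotriene, prostaglandin and thromboxane pathways were followed in sorted mouse bone marrow cells through 10 genes chosen by name: Alox5, Alox5ap, Ltc4s, Lta4h, Ptgs1, Ptgs2, Hpgds, Tbxas1, Tbxa2r and Ptger4. Each matched 1 row of the count table, 10 of 54532 gene rows in all. The cells were LSK cells, a marrow fraction sorted as negative for lineage markers and positive for Sca-1 and c-Kit, in which stem cells and early progenitors lie. There were 3 libraries from AML1/ETO mice (genotype Runx1-Runx1t1, the fusion made by the t(8;21) translocation of acute myeloid leukaemia) and 5 from control mice (genotype WT), all of strain C57BL/6. Every mouse of both groups had been given poly(I:C), which mimics viral RNA and provokes interferon, in 4 injections of 5 mg/kg, with sorting 4 weeks afterwards. The promoter that drives the fusion, the Cre used if any, the ages of the mice and whether each library came from a separate animal are left unstated by the labels, and p-values thus reflect variation among these libraries, which may be technical.

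Eicosanoids are short-lived lipid signals made from arachidonic acid, which phospholipases cut from membranes. In the leukotriene arm, 5-lipoxygenase with its helper protein FLAP forms leukotriene A4. Leukotriene A4 hydrolase then makes leukotriene B4, a neutrophil attractant, and leukotriene C4 synthase makes leukotriene C4, the first of the cysteinyl leukotrienes that mast cells, basophils and eosinophils release. In the prostanoid arm, the cyclooxygenases form prostaglandin H, and separate synthases turn it into prostaglandins E, D, F and I and thromboxane A2. In marrow, prostaglandin E acts on stem cell survival and homing, and thromboxane A2 is best known as the platelet activator.

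Library totals ran from 14693080 to 17527043 reads. Runx1t1, which holds the ETO part of the fusion, was read 712 to 1971 times per AML1/ETO library against 27 to 132 times per control. The sort markers Kit and Ly6a (Sca-1) were detected in all 8 libraries, and both were called higher in AML1/ETO in the edgeR test and in all 18 alternatives. Kit stood at 1386 ± 416 CPM (SD, n = 3) against 431 ± 38.0 CPM (SD, n = 5), and Ly6a at 466 ± 395 against 14.99 ± 6.10 CPM, with AML1/ETO library 3 at 921 CPM. The sorted cells of the groups thus differed in the genes used to sort them, and the part of this in the results was not tested. The X-linked RNA Xist was read at least 28559 times in each AML1/ETO library and at most 111 times in any control. The Y-linked gene Ddx3y had 0 reads in each AML1/ETO library and 3688 to 5038 in the controls. By these transcripts the AML1/ETO libraries were female and the controls male. Sex thus differed along with genotype in every library, and the contributions of the pair cannot be told apart. AML1/ETO library 1 was farther from libraries 2 and 3 (chi-square per degree of freedom over genes 120 and 113) than those were from each other (67.6). Scarce transcripts were often missed: where the rest of a group predicted 20 to 50 reads for a gene, 41.4% to 51.1% of such genes were at 0 in an AML1/ETO library. The share was 46.2% in control library 1 and 10.5% to 27.0% in controls 2 to 5. Without both first libraries, 2 of the 10 genes were still called higher and 4 lower, with Ptger4 no longer called. In a sorted bulk sample, fewer cells of a type and less RNA per cell cannot be told apart, and this holds for every result here.

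Of the 10 genes, 2 were higher in AML1/ETO cells (Alox5ap and Ptgs1) and 5 were lower (Lta4h, Hpgds, Tbxas1, Tbxa2r and Ptger4). The remaining 3 (Alox5, Ltc4s and Ptgs2) did not pass the test, which was edgeR's quasi-likelihood test with Benjamini-Hochberg adjustment over 15009 genes and a threshold of 0.05. Over all tested genes 25.7% were called, 11.6% as higher and 14.2% as lower (1734 and 2128 genes, or 1407 and 2712 with scaling by library totals alone). The median log2 fold change was −0.87 over the 10 genes and −0.09 over all tested genes. All AML1/ETO libraries lay above all controls for 3 of the genes, against 14.1% of tested genes, and below them for 4, against 17.5%. Only 6 of the genes reached the filter's level in every AML1/ETO library. Alox5, Hpgds, Tbxas1 and Tbxa2r entered the test through the controls alone and so could differ only downwards, which limits what these counts and the median can say.

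**Figure D1:**
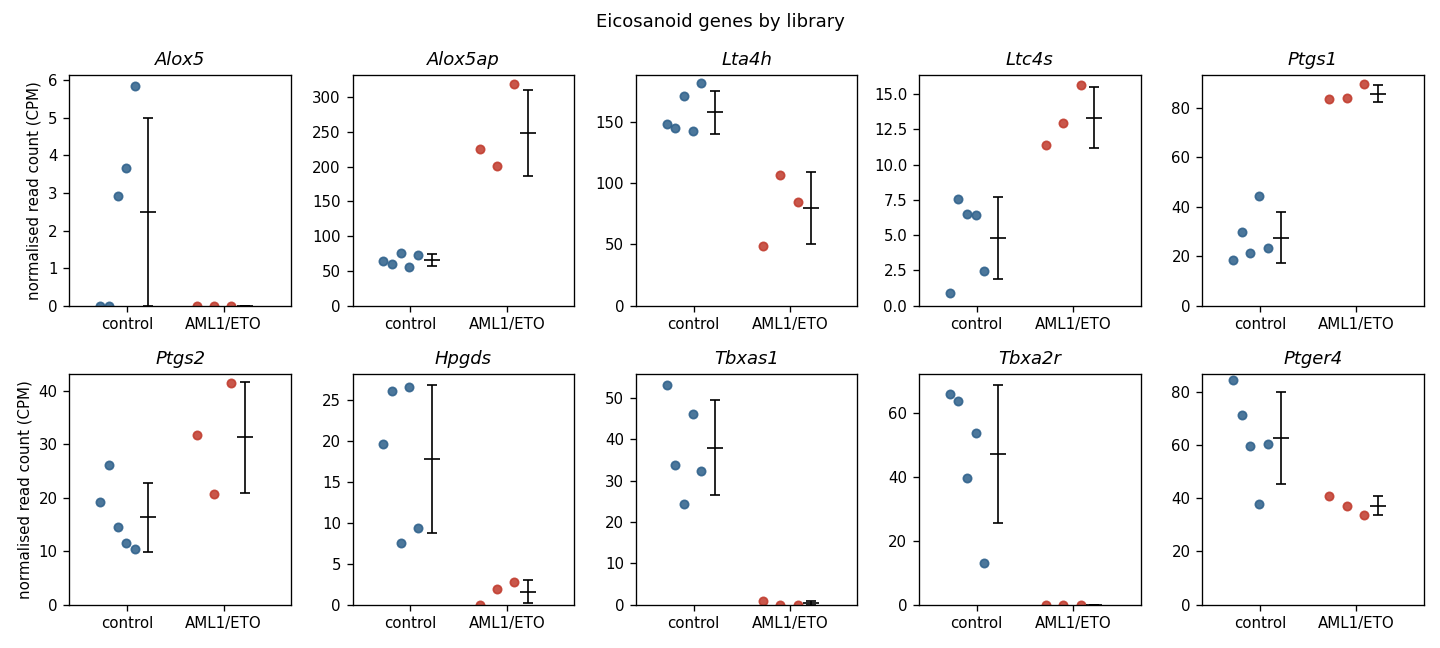
Normalised read count (CPM, scaled counts) of each of the 10 genes, one point per library (5 control in blue, 3 AML1/ETO in red), with the group mean and SD in black beside the points; each panel has its own axis from 0. Alox5ap, Ltc4s and Ptgs1 lay above every control in all AML1/ETO libraries, Lta4h, Hpgds, Tbxas1 and Tbxa2r lay below, and Alox5, Ptgs2 and Ptger4 overlapped.

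In the leukotriene arm the helper protein gene rose while the lipoxygenase gene itself was nearly unread. Alox5ap (ENSMUSG00000060063, chromosome 5, 149264767 to 149288153 in mm10) encodes FLAP, the membrane protein that hands arachidonic acid to 5-lipoxygenase. Its level was 225, 201 and 319 CPM in AML1/ETO libraries 1, 2 and 3, where CPM stands for counts normalised to library size with TMM factors. In control libraries 1 to 5 it was 64.6, 60.6, 76.3, 55.7 and 72.5 CPM. The lowest AML1/ETO library thus stood well above the highest control. Alox5ap rose 3.77-fold, from 65.9 ± 8.47 CPM (SD, n = 5) to 248 ± 62.1 CPM (SD, n = 3; log2 fold change 1.91, SE 0.18, adjusted p = 2.45e-05 by edgeR).

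Alox5 (ENSMUSG00000025701, chromosome 6, 116410077 to 116461178) encodes 5-lipoxygenase, the enzyme that starts leukotriene synthesis. AML1/ETO libraries held no read of it, nor did control libraries 1 and 2. Control libraries 3, 4 and 5 held 53, 63 and 102 reads, or 2.91, 3.67 and 5.85 CPM. The groups therefore overlapped at 0, and the difference did not pass (adjusted p = 0.0747 by edgeR). It passed with DESeq2 (adjusted p = 0.00981) and without control library 1 (0.0480), and the highest adjusted p among the 15 alternatives in which it could be tested was 0.478. Of 791 tested genes with a control mean within 1.25-fold of that of Alox5, itself included, 121 (15.3%) were at 0 throughout AML1/ETO, and Alox5 is among these 121.

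Lta4h (ENSMUSG00000015889, chromosome 10, 93453411 to 93484875) encodes leukotriene A4 hydrolase, which makes leukotriene B4. Its level was 48.5, 107 and 84.6 CPM in AML1/ETO libraries 1, 2 and 3 and 148, 145, 171, 143 and 182 CPM in control libraries 1 to 5. The groups did not overlap, and AML1/ETO library 1 was the lowest of all. Lta4h fell 1.97-fold (80.0 ± 29.5 CPM, SD, n = 3, against 158 ± 17.6 CPM, SD, n = 5; log2 fold change −0.98, SE 0.23, adjusted p = 0.00968 by edgeR).

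Ltc4s (ENSMUSG00000020377, chromosome 11, 50236461 to 50238616) encodes leukotriene C4 synthase, which couples leukotriene A4 to glutathione. It stood at 11.4, 12.9 and 15.6 CPM in AML1/ETO libraries 1, 2 and 3. Controls 1 to 5 stood at 0.936, 7.57, 6.49, 6.46 and 2.47 CPM. Every AML1/ETO library was above every control, but the controls scattered widely (4.78 ± 2.90 CPM, SD, n = 5) and the difference did not pass (log2 fold change 1.48, SE 0.65, adjusted p = 0.120 by edgeR, from 0.0593 to 0.274 over the alternatives). An antisense transcript, Gm26542, shares 268 exon bases with Ltc4s and was called higher (147, 142 and 241 reads in AML1/ETO, 29 to 78 in the controls, adjusted p = 0.0285). Whether reads were counted by strand is not given, so reads of this pair may not be separable. Gm19719, which shares 189 exon bases with Alox5ap on the opposite strand, was read 78 to 291 times per AML1/ETO library against 2975 to 4872 for Alox5ap.

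Leukotriene A4 stands at a branch point between these enzymes, so the transcript ratio of Ltc4s to Lta4h was taken within each library, per kilobase of exon. This ratio was chosen after the values had been seen and is given without a test. It was 1.41, 0.729 and 1.11 in AML1/ETO libraries 1, 2 and 3, and from 0.0380 to 0.314 in the controls with a median of 0.228. The ratio of Alox5ap to Lta4h was 19.98, 8.08 and 16.2 in AML1/ETO libraries and 1.68 to 1.92 in controls. Neither of these ratios overlapped between the groups. This was fixed in advance and adds no further observation, since Ltc4s and Alox5ap lay above every control in all AML1/ETO libraries and Lta4h lay below. The ratios do not depend on how the libraries were scaled, but their size depends on the exon lengths used. A further ratio of this arm, Alox5ap to Ltc4s, did overlap, at 11.1 to 14.6 in AML1/ETO and 5.72 to 49.3 in control libraries. The control values of Alox5ap to Lta4h were tight, whereas AML1/ETO library 2 lay well under AML1/ETO libraries 1 and 3.

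**Figure D2:**
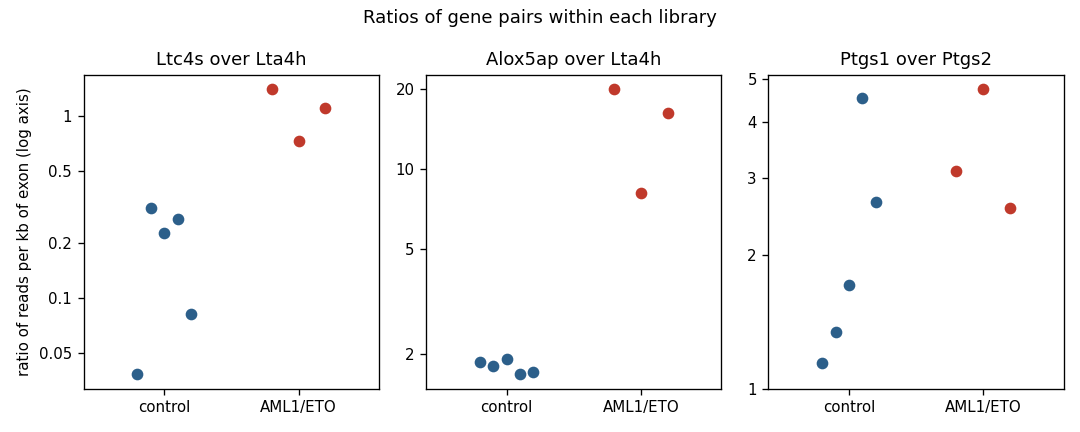
Ratio of 2 genes' reads per kilobase of exon within each library, on log axes, one point per library (5 control in blue, 3 AML1/ETO in red). Ltc4s over Lta4h was 0.729 or more in AML1/ETO libraries and at most 0.314 in controls. Alox5ap over Lta4h was 8.08 or more against at most 1.92. Both separations follow from the levels of the single genes. Ptgs1 over Ptgs2 overlapped.

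Of the 2 cyclooxygenase genes, the constitutive one rose. Ptgs1 (ENSMUSG00000047250, chromosome 2, 36230426 to 36252272) encodes cyclooxygenase 1, the form that platelets and mast cells carry. It stood at 83.6, 83.7 and 89.6 CPM in AML1/ETO libraries 1, 2 and 3 and at 18.5, 29.8, 21.2, 44.3 and 23.2 CPM in controls 1 to 5. The AML1/ETO libraries lay close together and all above the highest control, library 4. Ptgs1 rose 3.12-fold (85.6 ± 3.45 CPM, SD, n = 3, against 27.4 ± 10.3 CPM, SD, n = 5; log2 fold change 1.64, SE 0.27, adjusted p = 0.00102 by edgeR).

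Ptgs2 (ENSMUSG00000032487, chromosome 1, 150100031 to 150108227) encodes cyclooxygenase 2, the inducible form and itself an immediate early gene. It stood at 31.7, 20.7 and 41.3 CPM in AML1/ETO libraries and at 19.1, 26.2, 14.6, 11.5 and 10.4 CPM in controls 1 to 5. AML1/ETO library 2 lay below control library 2, so the groups overlapped. The difference did not pass (log2 fold change 0.93, SE 0.37, adjusted p = 0.0817 by edgeR). It passed with DESeq2 (adjusted p = 0.0492) and when control library 2 was left out (0.0387), with 0.460 the highest of the alternatives. Beside it, 12 of 14 immediate early genes were called higher and none lower, with a median log2 fold change of 3.50. Over all tested genes 11.6% were called higher. Ptgs1 over Ptgs2, per kilobase within a library, was 2.56 to 4.77 in AML1/ETO and 1.14 to 4.53 in control libraries, which overlapped.

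Tbxas1 and Hpgds, which encode synthases downstream of prostaglandin H, were both lower. Tbxas1 (ENSMUSG00000029925, chromosome 6, 38875404 to 39084585) encodes thromboxane A synthase, found in platelets and macrophages. Its reads numbered 11, 0 and 0 in AML1/ETO libraries 1, 2 and 3, or 0.833 CPM in the first. In control libraries 1 to 5 it had 911, 578, 442, 794 and 564 reads, or 53.3, 33.9, 24.3, 46.2 and 32.4 CPM. Each control thus exceeded the highest AML1/ETO library many times over. Tbxas1 fell 137-fold by the group means (0.278 ± 0.481 CPM, SD, n = 3, against 38.0 ± 11.6 CPM, SD, n = 5; log2 fold change −7.16, SE 0.92, adjusted p = 0.000201 by edgeR). The size rests on the 11 reads of AML1/ETO library 1: the fold was 91.3 when library 2 or 3 was left out and at least 198 when library 1 was.

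Hpgds (ENSMUSG00000029919, chromosome 6, 65117293 to 65144908) encodes haematopoietic prostaglandin D synthase, the source of prostaglandin D in mast cells and megakaryocytes. It stood at 0, 1.94 and 2.81 CPM in AML1/ETO libraries 1, 2 and 3 and at 19.7, 26.0, 7.48, 26.6 and 9.29 CPM in controls 1 to 5. The groups did not overlap, and controls 3 and 5 were the lowest of their group. Hpgds fell 11.3-fold, with 7.50-fold when AML1/ETO library 1 was left out and 18.4-fold when library 3 was (log2 fold change −3.48, SE 0.99, adjusted p = 0.0232 by edgeR). Leaving out control library 2 (adjusted p = 0.0636) or 4 (0.0622) ended the call, as did limma-voom (0.147, the highest over the alternatives) and the replicate number as a block (0.118).

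Both receptor genes were lower, to unequal degrees. Tbxa2r (ENSMUSG00000034881, chromosome 10, 81328731 to 81335172), the thromboxane receptor, was at 0 in all AML1/ETO libraries. Controls 1 to 5 held 1127, 1086, 719, 922 and 229 reads, or 65.9, 63.7, 39.5, 53.7 and 13.1 CPM. Control library 5 was the lowest of its group by far and still far from 0. With a floor of 3 reads per library, Tbxa2r was at least 231.8-fold lower (47.2 ± 21.7 CPM in controls, SD, n = 5; adjusted p = 3.89e-05 by edgeR, 0.0785 with limma-voom, the highest over the alternatives). Among 1410 tested genes with a control mean within 1.25-fold of that of Tbxa2r, itself included, 5 (0.355%) were at 0 in all of AML1/ETO, and Tbxa2r is among these 5. Tbxa2r and Tbxas1, a receptor and the synthase of its ligand, were thus both nearly or fully without reads in the AML1/ETO libraries.

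Ptger4 (ENSMUSG00000039942, chromosome 15, 5206661 to 5244187) encodes EP4, a prostaglandin E receptor that raises cyclic AMP. It stood at 40.7, 37.2 and 33.6 CPM in AML1/ETO libraries and at 84.5, 71.4, 59.6, 37.8 and 60.4 CPM in controls 1 to 5. Control library 4 lay among the AML1/ETO libraries, so the groups overlapped. Ptger4 passed narrowly as lower, 1.69-fold (log2 fold change −0.75, SE 0.26, adjusted p = 0.0487 by edgeR). The call held in only 5 of 18 alternatives (adjusted p 0.0190 to 0.144), and was lost without AML1/ETO library 1, 2 or 3 or control library 1, 2, 3 or 5 (0.0576 to 0.130).

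Per kilobase of exon, levels can be set side by side between genes, but only roughly. The length joins the exons of all annotated transcripts of a gene (6102 bases for Lta4h, 1014 for Ltc4s). It can exceed the length of the transcript made, so the order of genes depends on it. In the controls Alox5ap was the highest (46.4 ± 5.96 CPM per kilobase, SD, n = 5), followed by Lta4h (25.9 ± 2.88) and Tbxa2r (24.6 ± 11.3). Ptger4 (9.44), Ptgs1 (7.06), Ltc4s (4.72), Tbxas1 (4.18), Ptgs2 (3.57) and Hpgds (2.77) followed, and Alox5 was the lowest (0.606). Only Alox5ap was apart from the next gene in every control library, and all other neighbours in this order overlapped in their ranges. In the AML1/ETO libraries Alox5ap (175 ± 43.8 CPM per kilobase, SD, n = 3) and Ptgs1 (22.0 ± 0.889) led and did not overlap with the next gene. By this length Ltc4s and Lta4h had the same mean, 13.1 CPM per kilobase, and overlapped. Without division by length their means were 13.3 and 80.0 CPM. Lta4h and Ptgs2 (6.82) overlapped too, as did Ptgs2 and Ptger4 (5.59). Hpgds (0.246) and Tbxas1 (0.0305) came next, and Alox5 and Tbxa2r were at 0.

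Promoter sequence is shown for the cyclooxygenase pair, which differed in their call, for Ltc4s at the leukotriene branch, and for Hpgds and Tbxas1, the synthases that fell. The windows are the 250 bases before the start in the RefSeq promoter table for GRCm38.p6, in which 9 of the 10 genes were found (Tbxa2r with 2 starts) and Alox5ap was not. These starts are not always the outer ends of the genes as given above. The Tbxas1 window lies wholly inside the gene, which begins at 38875404. The Hpgds and Ltc4s windows lie partly inside their genes, which reach to 65144908 and 50238616. Capitals mark matches on either strand. The letters searched were, for RUNX, TGTGGT and, as its variant, TGCGGT. The AP-1 letters were TGANTCA and the letters of the cyclic AMP response element (CRE) were TGACGTCA. For GATA factors, TGATAA was searched, with its variant AGATAA. The ETS letters were GAGGAAGT and the letters of the E-box were CACGTG, and an NF-kappaB motif was searched too. On the opposite strand the RUNX match TGTGGT appears as its complement, ACCACA, in the printed line. No 2 matches overlap in these windows.
Ptgs1, chr2:36230176-36230425, plus strand: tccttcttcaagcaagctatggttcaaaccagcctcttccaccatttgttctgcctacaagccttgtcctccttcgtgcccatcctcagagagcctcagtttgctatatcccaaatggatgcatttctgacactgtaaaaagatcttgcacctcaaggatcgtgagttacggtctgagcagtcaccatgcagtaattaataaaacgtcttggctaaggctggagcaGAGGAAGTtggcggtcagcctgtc
Ptgs2, chr1:150099781-150100030, plus strand: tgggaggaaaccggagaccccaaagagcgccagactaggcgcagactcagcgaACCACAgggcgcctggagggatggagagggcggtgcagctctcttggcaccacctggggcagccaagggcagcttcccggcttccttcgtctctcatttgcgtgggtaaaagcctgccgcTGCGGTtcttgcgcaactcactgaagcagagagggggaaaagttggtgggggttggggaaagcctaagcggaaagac
Ltc4s, chr11:50238533-50238782, minus strand: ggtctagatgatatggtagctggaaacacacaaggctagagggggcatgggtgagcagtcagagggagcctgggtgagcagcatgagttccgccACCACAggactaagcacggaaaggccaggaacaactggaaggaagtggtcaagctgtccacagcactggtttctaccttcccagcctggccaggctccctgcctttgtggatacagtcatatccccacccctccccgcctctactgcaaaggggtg
Hpgds, chr6:65144731-65144980, minus strand: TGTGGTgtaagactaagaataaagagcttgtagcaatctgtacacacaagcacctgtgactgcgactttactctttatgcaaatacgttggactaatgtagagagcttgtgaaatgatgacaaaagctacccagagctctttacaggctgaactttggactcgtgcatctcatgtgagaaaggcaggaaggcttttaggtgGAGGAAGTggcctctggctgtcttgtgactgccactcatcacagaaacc
Tbxas1, chr6:38918736-38918985, plus strand: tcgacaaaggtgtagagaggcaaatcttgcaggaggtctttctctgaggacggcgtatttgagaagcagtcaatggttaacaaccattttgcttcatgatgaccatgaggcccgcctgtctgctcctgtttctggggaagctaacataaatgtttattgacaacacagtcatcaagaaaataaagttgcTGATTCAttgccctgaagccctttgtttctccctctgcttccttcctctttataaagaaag

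RUNX letters, which the DNA-binding part of the fusion protein recognises, were in the windows of 3 of the 9 genes, Ptgs2, Ltc4s and Hpgds, and in 18.6% of all 32841 promoter windows. Of these genes, Hpgds fell and the other two did not pass the test. ETS letters were in the windows of Ptgs1, which rose, and Hpgds, which fell, and in 2.44% of all windows. The AP-1 letters of Tbxas1 were in 6.75% of all windows. CRE (1.55% of all windows), NF-kappaB (1.41%), GATA (16.6%) and E-box (6.02%) letters were in none of the 9 genes' windows. A match describes letters alone and shows no binding.

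The rest of the pathway was read from 48 further genes in 6 lists. Of these, 31 could be tested, 3 were called higher and 7 lower, and 21 did not pass, so 10 of 31 were called where 25.7% of all tested genes were. Of the 31, 10 entered the test through the controls alone and could hardly come out other than lower, among them 5 of the 7 called lower (Alox12, Ggt1, Ptges, Slco2a1 and Ptger2), so the count is no more than a description. Their median log2 fold change was −0.13. A further 12 of the 48 had no read in any library, among them the receptor genes Cysltr1, Ptgdr, Ptgdr2, Ptgfr and Oxgr1.

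Among 7 phospholipase genes that release arachidonic acid, 1 rose and 1 fell of 5 tested. Pla2g6, a calcium-independent phospholipase, rose 2.30-fold to 52.9 ± 5.32 CPM (SD, n = 3) from 23.0 ± 3.91 CPM (SD, n = 5; adjusted p = 0.00202 by edgeR). Pla2g12a, a secreted phospholipase, fell to 3.31 ± 0.883 from 12.9 ± 3.41 CPM (adjusted p = 0.0135 by edgeR). The call was lost with limma-voom (adjusted p = 0.111) and with the replicate block in edgeR (0.0842). Pla2g4a, the cytosolic phospholipase that feeds both arms, stood at 34.3 ± 11.4 CPM (SD, n = 3) against 32.3 ± 6.73 CPM (SD, n = 5) and did not pass (log2 fold change 0.09, SE 0.27, adjusted p = 0.869 by edgeR).

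Of 6 other lipoxygenase genes only Alox12, the platelet 12-lipoxygenase, could be tested, and it fell. It was unread in AML1/ETO libraries and had 66, 78, 21, 101 and 2 reads in controls 1 to 5. Its adjusted p was 0.0198 by edgeR, 0.120 with limma-voom and 0.173 with the replicate block in edgeR. With 2 reads in control library 5 its control group reached down to the floor. The 9 genes of leukotriene handling held 1 rise and 1 fall among 7 tested. Mgst2, a microsomal glutathione transferase that can also make leukotriene C4, rose 6.15-fold to 46.8 ± 5.73 from 7.62 ± 4.00 CPM (SD, n = 3 and n = 5; log2 fold change 2.62, SE 0.42, adjusted p = 0.000827 by edgeR). Its lowest AML1/ETO library had 531 reads and its highest control 242. Ggt1, a gamma-glutamyl transferase that trims leukotriene C4, had no read in AML1/ETO libraries against 12 to 39 in controls and was called lower (adjusted p = 0.0397 by edgeR, up to 0.422 over the alternatives, with the call held in 7 of 18). The call of Ggt1 was lost without any single AML1/ETO library or without control library 2, 3, 4 or 5 (0.0546 to 0.102). Ggt5, the transferase best known for making leukotriene D4, stood at 2.88 ± 3.37 against 19.0 ± 8.35 CPM without overlap and did not pass (adjusted p = 0.0739 by edgeR). Abcc1, which exports leukotriene C4, stood at 131 against 144 CPM (adjusted p = 0.654 by edgeR).

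Of 9 prostanoid synthase and reductase genes 7 could be tested, of which 2 fell and none rose. Ptges, the inducible prostaglandin E synthase that couples to cyclooxygenase 2, had no read in AML1/ETO libraries and 164, 171, 80, 151 and 43 reads in controls 1 to 5. It was at least 34.65-fold lower with the floor of 3 reads per library (7.06 ± 3.41 CPM in controls, SD, n = 5; adjusted p = 0.00112 by edgeR). The constitutive Ptges2 and Ptges3 did not pass, at 10.02 against 10.6 CPM (adjusted p = 0.954 by edgeR) and 77.7 against 118.5 CPM (0.103). Akr1b3, an aldose reductase with prostaglandin F synthase activity, fell 1.87-fold to 61.3 ± 15.5 from 115 ± 10.5 CPM (SD, n = 3 and n = 5; adjusted p = 0.00573 by edgeR). Ptgis, the prostacyclin synthase gene, had reads in control library 4 alone.

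In the transport and breakdown list of 5 genes, 1 of 4 tested fell. Slco2a1, the prostaglandin uptake transporter, had no read in AML1/ETO libraries and 12 to 79 in controls, at least 12.35-fold lower with the same floor (adjusted p = 0.0164 by edgeR, and 0.213 with the replicate block). Hpgd, which inactivates prostaglandins, was nearly unread in both groups, with 12 and 11 reads in controls 3 and 4 alone. Abcc4, a prostaglandin exporter, stood at 54.4 against 44.5 CPM (adjusted p = 0.356 by edgeR).

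Of 12 other receptor genes 7 could be tested, and 1 rose and 1 fell. Ptgir, the prostacyclin receptor, rose 3.25-fold to 30.9 ± 8.02 from 9.51 ± 4.09 CPM (SD, n = 3 and n = 5; log2 fold change 1.70, SE 0.42, adjusted p = 0.0120 by edgeR). It was no longer called when AML1/ETO library 3 was left out (adjusted p = 0.0532) or with the replicate block (0.0966). Ptger2, which encodes the EP2 receptor for prostaglandin E, was read 0, 25 and 0 times in AML1/ETO libraries 1, 2 and 3. In controls 1 to 5 it had 218, 315, 415, 452 and 429 reads. Ptger2 fell 40.3-fold, with 26.9-fold when AML1/ETO library 1 or 3 was left out and at least 99.2-fold when library 2 was (adjusted p = 0.00529 by edgeR). Ptger1 and Ptger3, the EP1 and EP3 receptors, did not pass (8.97 against 9.42 CPM and 23.8 against 21.2 CPM, adjusted p = 0.954 and 0.816 by edgeR). Cysltr2, a cysteinyl leukotriene receptor, stood at 26.5 against 20.2 CPM (adjusted p = 0.427 by edgeR), and Ltb4r1, a leukotriene B4 receptor, at 5.83 against 6.51 CPM (0.902).

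**Figure D3:**
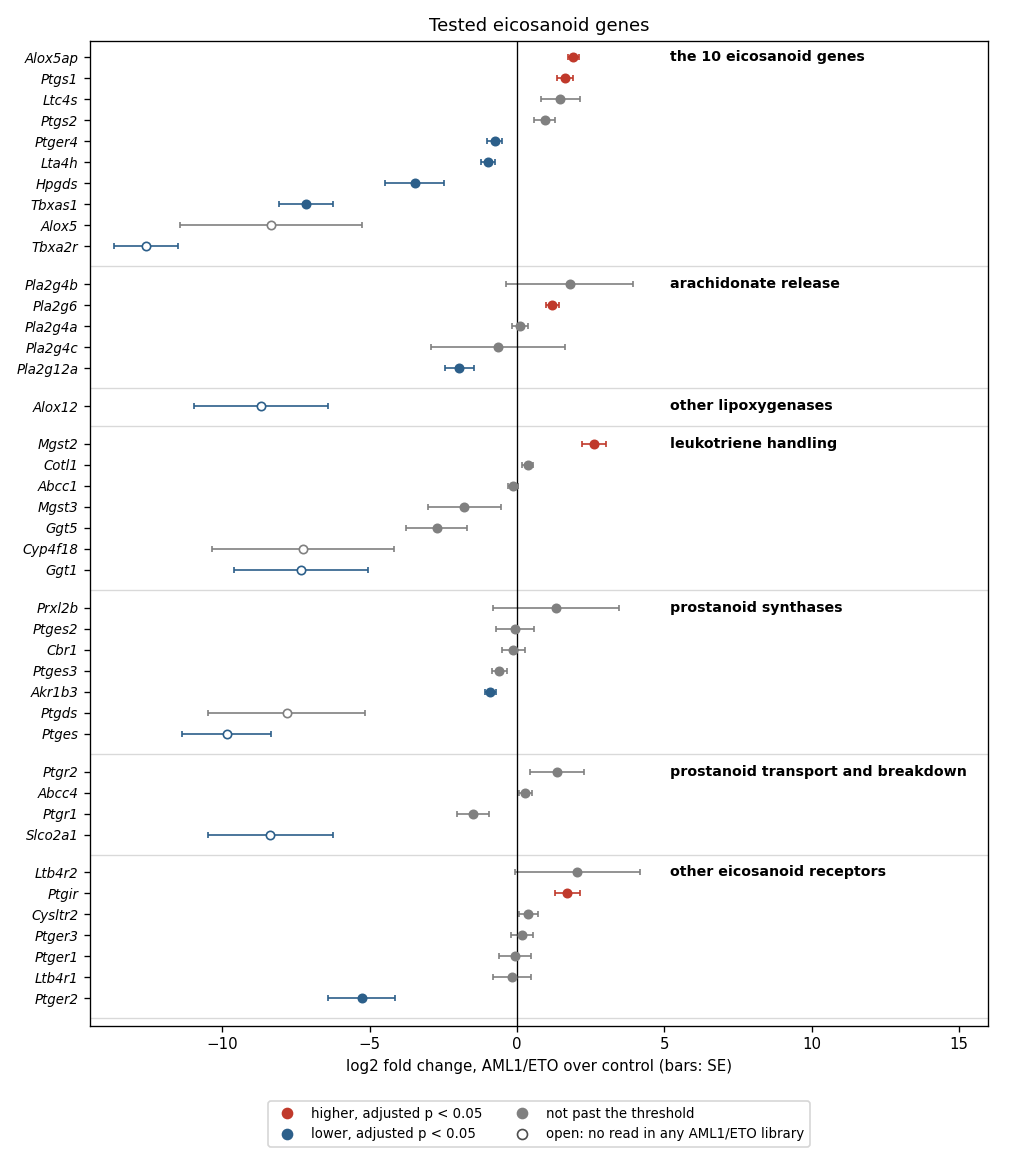
Log2 fold change of AML1/ETO over control (bars are SE) for the 10 eicosanoid genes and the 31 other pathway genes that could be tested, grouped by list; red and blue mark adjusted p under 0.05 as higher or lower, grey the rest, and open points genes at 0 in all AML1/ETO libraries, whose fitted value depends on the prior count. Alox5ap, Ptgs1, Pla2g6, Mgst2 and Ptgir were the genes called higher.

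Several of these genes are also known from mast cells, platelets, granulocytes or macrophages, and markers of those cells moved too. Of 10 mast cell markers, 7 could be tested and all 7 were called higher, with a summed level of 2900 to 7304 CPM in AML1/ETO libraries against 113 to 177 CPM in controls. Over all tested genes 11.6% were called higher and 14.2% lower. Of the 7, Cma1 had no read in any control, so it entered the test through the AML1/ETO libraries alone and could differ only upwards. Cpa3, the mast cell carboxypeptidase, stood at 3844 against 14.3 CPM, whereas the tryptase and protease genes Tpsab1 and Mcpt4 were read in AML1/ETO library 1 alone and Tpsb2 in libraries 1 and 2. Of the eicosanoid genes that mast cells also express, Alox5ap and Ptgs1 were called higher and Ltc4s lay above every control without passing, whereas Hpgds was called lower and Alox5 had no AML1/ETO read. Of 14 megakaryocyte and platelet markers, 12 could be tested, 2 were called higher and 4 lower (Vwf, Cd9, Selp and Gp9), and the sum was 360 to 1018 CPM in AML1/ETO against 471 to 625 CPM in controls. The platelet genes Ppbp and Gp1bb had no read in any library. Of 10 monocyte and macrophage markers, 4 of 7 tested were called lower and none higher (summed 42.7 to 52.1 against 131 to 253 CPM). Of 9 neutrophil markers, 3 of 7 tested were called lower (summed 0.0654 to 62.6 against 119 to 285 CPM), and of 7 basophil and eosinophil markers, 4 of 5 tested (6.69 to 22.6 against 14.3 to 90.2 CPM), with no gene called higher in either list. Lymphocyte markers were lower for 3 of 5 tested (7.57 to 16.4 against 137 to 322 CPM). Il5ra of the basophil and eosinophil list was read in AML1/ETO libraries 2 and 3 alone (85 and 23 reads) and fell under the filter. In the monocyte and macrophage list, 3 markers had reads in AML1/ETO libraries but in no control, and 2 had reads in controls alone. In the neutrophil list, 1 marker had reads in AML1/ETO libraries but in no control, and 2 had reads in controls alone. Many of the lower calls had entered through the controls alone, namely 4 of 4 basophil and eosinophil, 3 of 3 neutrophil, 3 of 4 monocyte and macrophage, 3 of 4 megakaryocyte and platelet and 2 of 3 lymphocyte markers. The part of any of these in the eicosanoid results was not tested.

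**Figure D4:**
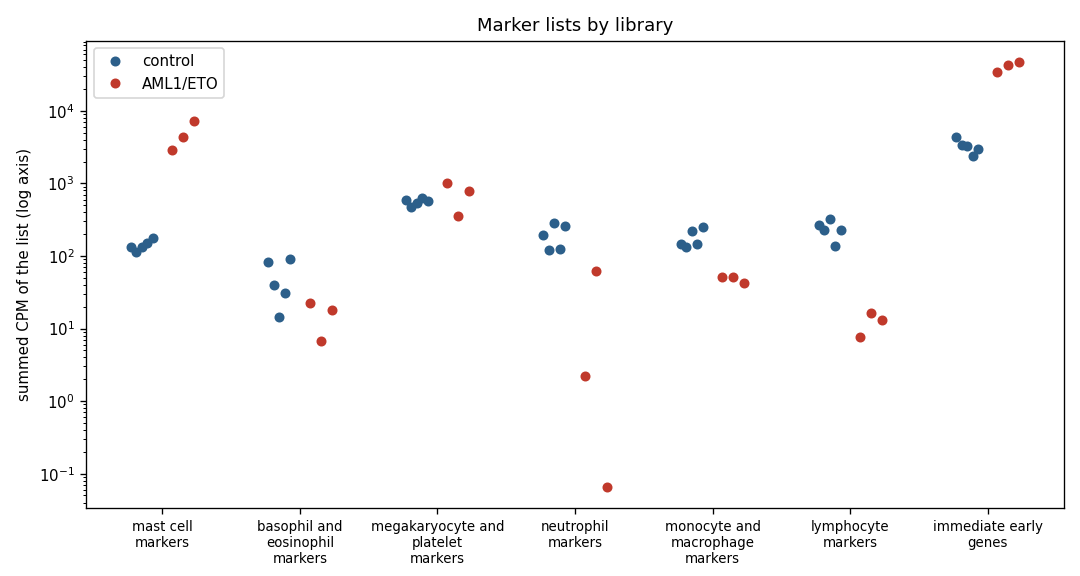
Summed CPM of each marker list in each library, on a log axis, one point per library (5 control in blue, 3 AML1/ETO in red). The mast cell list was at 2900 CPM or more in AML1/ETO libraries and at most 177 CPM in controls, the immediate early list lay above the controls too, and the monocyte, neutrophil and lymphocyte lists lay below.

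For each called gene, the tested genes with the most similar profile over the 8 libraries were found by the root mean square difference of centred log2 CPM among 9873 genes averaging at least 5 CPM. The eicosanoid genes followed here, unnamed gene models, pseudogenes and immunoglobulin and T cell receptor segments had been left out of these 9873. Nearest to Alox5ap were Tle6 (0.150 log2 units) and Tiparp (0.166), nearest to Ptgs1 were Ap5z1 (0.158) and Chkb (0.189), and nearest to Lta4h were Rbbp7 (0.106) and Dr1 (0.107). Nearest to Ptger4 were Pou2f2 (0.135) and Kdm2b (0.149). The genes with few AML1/ETO reads had less close neighbours. These were Dnph1 (0.551) and Clstn3 (0.579) for Hpgds, Spsb1 (0.478) and Tnfrsf13c (0.519) for Tbxas1, and Il21r (0.460) and Irf4 (0.498) for Tbxa2r.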

How the data were processed

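RNA from 8 libraries of LSK cells (3 AML1/ETO, 5 control) was sequenced by the authors after preparation with a NEBNext Ultra RNA kit, per the labels' protocols. The deposited values are raw read counts per Ensembl gene in 1 column per library. HISAT2 2.0.5, featureCounts 1.5.0-p3 and build mm10 are listed, per the submitters' processing notes. Annotation, strand setting and handling of duplicate or multiply aligned reads are stated nowhere in the labels or headers. No per-sample column was left unused. Libraries held 14693080 to 17527043 reads, and floors of 3 reads cover counting error only.

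Counts were fitted in edgeR 4.0.16 (R 4.3.3) over all 8 libraries without covariates: filterByExpr (minimum count 10, 15009 genes kept), TMM scaling, the two-sided quasi-likelihood test and Benjamini-Hochberg adjustment over all tested genes, at a threshold of 0.05. Variation between libraries, as edgeR's common coefficient, came to 72.6%. SEs were derived from the F statistic, and log2 CPM used a prior count of 2. Exon length and coordinates came from GENCODE M21 on GRCm38, the assembly of mm10. Exon length joined the exons of all transcripts of a gene. Prxl2b was matched through its older symbol, Fam213b. The test was tried on simulated counts with known changes. These were drawn without a separate loss of scarce transcripts, and no result here rests on them.

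The eicosanoid genes and all lists were chosen with earlier results of these data known. The rule named all 10 genes, pathway genes past the threshold (up to 4 per list) and the 2 nearest genes of each called gene; other pathway and marker genes were named after their values were seen. Alternatives were DESeq2 1.42.0, limma-voom (limma 3.58.1) with quality weights, 3 other scalings, 2 other filters, each library or both first libraries left out, the replicate number as a block, and no X or Y genes.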

Additional observations from a re-analysis of the deposited data

Results flagged for a closer look

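Among 39 sets of 5 control values, 3 held a library far from the rest of its group by Dixon's criterion, where chance alone gives about 1 in 20. The sets were the eicosanoid genes, the other pathway genes that were called, the nearest genes and the ratios of gene pairs. They were not independent of each other, and other genes named in the text were not examined. Pla2g6 was highest in control library 5, at 29.9 CPM. Ggt1 was highest in control library 1, at 2.28 CPM. Il21r, the nearest neighbour of Tbxa2r, was lowest in control library 5, at 11.0 CPM. Tbxa2r was lowest in that library too, which is no separate result, as Il21r was picked for its similar profile over these libraries.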

How the results depend on the processing

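None of the 10 genes changed direction under the 18 alternatives (15 for Alox5, which fell under the filter without control library 3, 4 or 5). Alox5ap, Ptgs1, Lta4h and Tbxas1 were called in all 18, Tbxa2r in 17, Hpgds in 14 and Ptger4 in 5; Ltc4s was called in none, and Alox5 and Ptgs2 in 2 each. With limma-voom, 2 of the 10 genes and 4 other pathway genes were called lower instead of 5 and 7. Leaving out single libraries gave 3 (without control library 2) to 5 genes lower. Scaling by library totals alone moved the genome-wide median by −0.146 (log2) and called 1407 genes higher and 2712 lower, against 1734 and 2128, and still called 2 and 5 of the 10 genes. Same-numbered libraries did not deviate together (correlations 0.0388, −0.0390 and 0.0271 over genes), and 1 of 3 AML1/ETO libraries correlated best with its own number, so the numbers were not taken as pairs. With the replicate block, 951 genes were called higher and 1098 lower, 2 and 4 of the 10 genes, and 2 and 3 other pathway genes. Control libraries 4 and 5 have no AML1/ETO library of their number, so the block comparison rested on the other libraries alone. The causes of these shifts were not tested. Levels under a few CPM are limited by the loss of scarce transcripts, so the absence of Alox5, Alox12, Slco2a1 and Ggt1 reads is less firm than that of Tbxa2r.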
